A study of Homo sapiens with 2 samples.

Results

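CD274, LAG3 and CD276 are 3 genes of the immune checkpoints, the ligands and receptors that restrain cytotoxic lymphocytes. CD274 encodes PD-L1, LAG3 an inhibitory receptor of T and NK cells, and CD276 the ligand B7-H3. They were taken by gene symbol from the platform annotation, which gave each of them 1 probe set (a group of array probes summarised to 1 value), 3 of the 14884 named genes. The 2 samples were SNK6 cells, a human line from an NK/T-cell lymphoma that carries Epstein-Barr virus, in RPMI-1640 medium with 10% heat-inactivated serum and 500 U/ml interleukin-2. Each was exposed for 72 h to romidepsin, a histone deacetylase inhibitor, alone (1 array) or with sildenafil, a phosphodiesterase inhibitor (1 array). The second drug, a short form in 1 sample title, was taken to mean sildenafil, the only other drug of the treatment protocol. Both groups therefore carry romidepsin and interleukin-2 and come from 1 cell line. Cells without drug, or with sildenafil only, were not analysed here, and the sources used here give no doses.

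PD-L1 sits on tumour and antigen-presenting cells and binds PD-1 on lymphocytes, where the phosphatases that PD-1 recruits damp activating signals. Interferon-gamma induces its gene through JAK kinases and IRF1, and at the protein level CMTM6 protects PD-L1 from degradation in lysosomes. LAG3 is a relative of CD4 that binds MHC class II and fibrinogen-like protein 1 and is displayed by activated or chronically stimulated lymphocytes. B7-H3 belongs to the same B7 family as PD-L1, is present on many solid tumours, and its receptor is not settled. In NK/T-cell lymphoma the malignant cell is itself of the lymphocyte lineage, so ligands and receptors can be transcribed by the same cell.

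The sequence ahead of the CD274 start is shown because interferon induction of PD-L1 is known to act through its promoter, and because several factors of that route were measured on the same arrays. Windows from RefSeq (GRCh38.p14) matched 2 of the 3 genes, CD274 and CD276. LAG3 was not among the matched genes. The 250 bases before the CD274 start (chr9:5450292-5450541, plus strand) are printed 5′ to 3′ with each match of the searched motifs in capitals.
CD274: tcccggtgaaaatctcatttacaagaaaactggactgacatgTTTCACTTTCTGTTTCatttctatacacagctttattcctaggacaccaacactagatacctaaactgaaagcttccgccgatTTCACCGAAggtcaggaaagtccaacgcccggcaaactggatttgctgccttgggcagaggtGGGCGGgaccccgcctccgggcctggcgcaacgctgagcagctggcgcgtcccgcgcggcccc

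Short motifs of 3 kinds were searched on both strands, and a match describes the letters, not a bound site. GAAA repeated after any 2 bases, a core of elements bound by interferon regulatory factors, matched (here as TTTC, its reverse complement) at 2 overlapping places in the CD274 window, 208 to 199 and 202 to 193 bases before the start. Of 35116 RefSeq windows of the same length, 3.02% held this motif. TTCNNNGAA, the form bound by STAT dimers, matched once, 125 to 117 bases before the start, and 6.57% of windows held it. GGGCGG, the GC box of SP-family factors, matched once in CD274, and 42.6% of windows held it. RefSeq gave CD276 2 starts. The window of the first held 7 GC boxes and that of the second 2, and neither held the IRF or STAT letters. The stretch with the most GC boxes (chr15:73684180-73684209, plus strand, 203 to 174 bases before the first CD276 start) is shown for contrast with CD274. Its 4 boxes, in capitals, partly overlap.
CD276: aggcctggGGGCGGGGCGGGGCGGGGGCGG

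The values are log2 signals, on which a step of 1 is a doubling of brightness. With 1 array per group there was no spread between replicates, so no difference below was tested. A gene is called when its signals on the 2 arrays were 1.5-fold or more apart (0.58 on the log2 scale), a rule of size alone. A positive difference means a higher log2 signal on the array with sildenafil. Genes entered when at least 1 array read 3.91 or more, the median of the whole table, which left 10081 genes with a median difference of -0.01. All 3 checkpoint genes passed on both arrays. Signals ran from 0.93 to 13.05 and from 0.79 to 12.97, the sorted columns differed nowhere by more than 0.15, and with 1 array a group an array batch cannot be told apart from the treatment. Of 15 listed NK markers 8 were named, and all 8 passed the filter. Perforin (PRF1, 8.83 and 8.81), NKG7 (8.50 and 8.23), NCAM1 (CD56, 6.63 and 6.54) and NCR1 (6.23 and 6.22) were the brightest. NCR2 (4.79 and 5.16), NCR3 (4.70 and 4.69), TYROBP (4.23 and 4.33) and GNLY (3.82 and 3.92) lay closer to the filter level or at it. Markers of other cell types also had signal. All 3 named B cell markers passed, CD22 (7.46 and 7.37), PAX5 (5.23 and 5.05) and BLK (5.19 and 5.14). So did 5 of 6 named T cell, 4 of 7 myeloid and 3 of 5 stromal and epithelial markers. The brightest of these were the keratin KRT18 (7.04 and 7.38) and the myeloid CD68 (6.72 and 6.61). Brightness is not comparable between probe sets, and these levels do not set the NK markers apart. The CD3 genes were not analysed here.

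None of the 3 checkpoint genes was called. The call at 1.5-fold took in 1.99% of the 10081 genes (1.02% higher, 0.972% lower), so 0 of 3 does not set these genes apart. LAG3 and CD276 lay 1.22-fold and 1.21-fold higher on the array with sildenafil, and CD274 lay 1.05-fold lower. At a looser threshold of 1.2-fold, LAG3 and CD276 were past it (2 of 3), against 19.3% of all genes in either direction, 9.71% higher and 9.63% lower. The log2 value of 1.2-fold is 0.26, and other scalings moved genes across it. After median centring LAG3 stood at 0.26, short of the threshold by less than the rounding, and CD276 at 0.24. After lowess centring LAG3 was past it at 0.31 and CD276 was not, at 0.25. Whether these steps exceed the variation between 2 cultures cannot be read from these arrays.

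CD274, the ligand, had nearly the same value on both arrays. Probe set 17083357 read 6.94 with romidepsin alone and 6.86 with romidepsin plus sildenafil, a difference of -0.08. Both values stood about 3 log2 units above the filter level (3.03 and 2.95). Among all named genes it ranked 2703rd and 2766th by brightness, brighter than 81.8% and 81.4% of them, though brightness also depends on the probes. Of the 1007 other genes in its decile of mean signal, 574 (57.0%) differed by as much or more in either direction. The SD of differences in that decile was 0.14 and the median -0.03. CD274 thus sat inside the bulk of genes of like brightness.

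LAG3, the receptor, showed the largest step of the 3. Probe set 16747402 read 5.42 without sildenafil and 5.71 with it, a difference of 0.29. Its brightness rank moved from 5774th to 5130th of 14884 named genes. By difference it ranked 808th from the top of the 10081 genes past the filter, above 92.0% of them. In its decile of signal, where the SD was 0.22 and 7 genes lay past 1.5-fold upward and 8 downward, 69 of the other 1007 genes (6.85%) had a higher difference. Counted in either direction, 157 (15.6%) were as far from 0. Relative to the median of that decile LAG3 stood 0.30 higher.

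CD276, the other B7 ligand, was the dimmest of the 3 probe sets. Probe set 16802854 read 4.71 without sildenafil and 4.98 with it, a difference of 0.27, with the arrays 0.81 and 1.08 above the filter level. Its brightness rank moved from 7367th to 6757th, and by difference it ranked 942nd from the top. Dim genes leaned upward on the combination array, with a median of 0.05 in the decile of CD276, so that relative to genes of like signal it stood 0.22 higher. In that decile the SD was 0.26, and 158 of the other 1007 genes (15.7%) had a higher difference and 264 (26.2%) were as far from 0. The share of genes past 1.2-fold in either direction was 27.1% in the decile of CD276, 19.7% in that of LAG3 and 7.24% in that of CD274, so across these 3 deciles a step of this size was the more common the dimmer the genes.

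**Figure D1:**
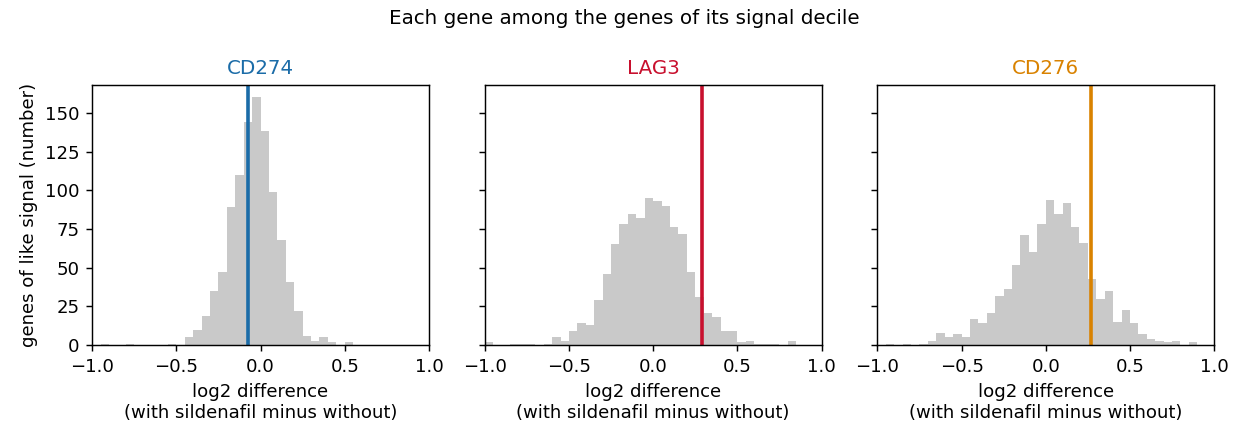
Histograms of the log2 difference (with sildenafil minus without, x axis, shown from -1 to 1) for the genes of the signal decile that holds CD274, LAG3 or CD276 (number of genes, y axis, 1008 genes per panel), with the named gene as a vertical line. CD274 at -0.08 lies within the peak, LAG3 at 0.29 toward its right shoulder, and CD276 at 0.27 in a wider distribution.

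LAG3 and CD276 differed from each other by 0.02 in their log2 difference, while LAG3 stood 0.37 and CD276 0.35 above CD274. How close LAG3 and CD276 lay depended on the scaling. They stood at 0.26 and 0.24 after median centring, 0.33 and 0.27 after quantile normalization, and 0.31 and 0.25 after lowess centring. Each gene rested on 1 probe set, so no second probe set could be set beside it. RefSeq lists 3 curated mRNAs for CD274, 3 for LAG3 and 4 for CD276, and 1 value per gene does not separate such variants. The arrays measured RNA, so the amount of PD-L1, LAG3 or B7-H3 protein is not known from them.

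CD276 and CD274 belong to the B7 family of immunoglobulin-like ligands, all 10 listed members of which were named on the array. Of these, 8 passed the filter, 3 were higher and 5 lower with sildenafil, and none reached 1.5-fold, against 1.99% of all genes. Their median was -0.07. ICOSLG, the ligand of the costimulator ICOS, read 4.10 and 4.48 (0.37) and was the other member past 1.2-fold beside CD276. That made 2 of 8 (25%, against 19.3% of all genes). PDCD1LG2, which encodes the second PD-1 ligand PD-L2, read 6.75 and 6.77 (0.03). CD80 (9.15 and 9.05) and CD86 (8.35 and 8.28), the ligands of CD28 and CTLA-4, differed by -0.11 and -0.07. HHLA2 (8.04 and 7.86) and VSIR (4.12 and 4.02), which encodes VISTA, differed by -0.19 and -0.11. VTCN1, encoding B7-H4, was below the filter on both arrays (3.23 and 3.08), as was NCR3LG1, the ligand of the NK receptor NKp30 (2.40 and 2.30). The 2 members past 1.2-fold were among the 3 dimmest that passed the filter, while the 4 brightest (CD80, CD86, HHLA2 and CD274) lay between -0.19 and -0.07.

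**Figure D2:**
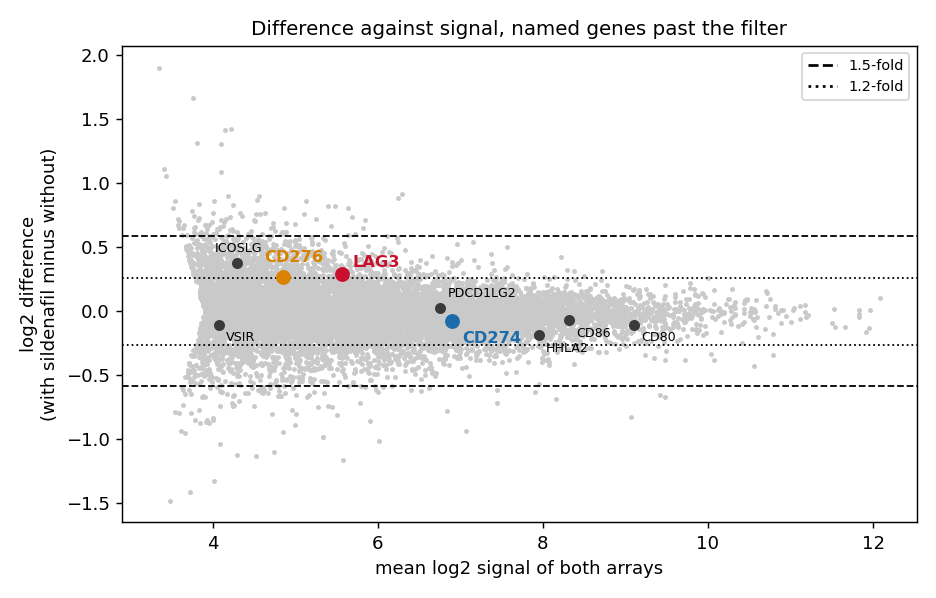
The log2 difference (with sildenafil minus without, y axis) against the mean log2 signal of both arrays (x axis) for the 10081 named genes past the filter, grey points, with CD274, LAG3 and CD276 in colour and other B7 family genes in black. The dashed lines mark 1.5-fold and the dotted lines 1.2-fold, and the grey cloud narrows from left to right.

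Among the 6 checkpoint receptors that passed the filter, LAG3 alone was past 1.2-fold (16.7%, against 19.3% of all genes). Of 18 listed, 14 were named and 6 passed the filter, with 3 higher and 3 lower and a median of -0.02. HAVCR2, which encodes TIM-3, read 6.91 and 6.93 (0.02), and CD96, a receptor for the poliovirus receptor, 6.46 and 6.41 (-0.05). PVRIG (-0.09), a receptor for nectin-2, the collagen receptor LAIR1 (0.01) and VSIR (-0.11) completed the group. CTLA4 (2.70 and 2.69), TIGIT (3.09 and 3.47), BTLA (2.53 and 2.31) and CD160 (3.27 and 3.51) were below the filter on both arrays. PDCD1, which encodes PD-1 itself, was not analysed here.

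The checkpoint ligands were split between both directions. Of 23 listed, 18 were named and 15 passed, with 9 higher, 6 lower and a median of 0.03. CD47, which signals to macrophages not to engulf the cell, read 9.58 and 9.34 (-0.24). The nectin-family ligands of TIGIT and CD96 were PVR (0.15), NECTIN1 (0.22), NECTIN2 (0.00) and NECTIN3 (0.13). NECTIN1 read 3.84 with romidepsin alone, below the filter level, and 4.06 with sildenafil, so it passed only through the array where it was higher. CEACAM1 was at 0.04 and CD48, a ligand of the NK receptor 2B4, at 0.08. VSIG4, a B7-related gene of macrophages, read 4.30 and 3.88 (-0.42), with the array carrying sildenafil below the filter level. CD200 (3.64 and 3.20) was below it on both. Receptors and ligands together had a median of 0.01 over 21 genes, 0.01 without the 3 genes described here (18 genes), against -0.01 over all genes. Of the 21, 3 were past 1.2-fold upward and 1 downward (19.0% in all), near the 19.3% of all genes.

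**Figure D3:**
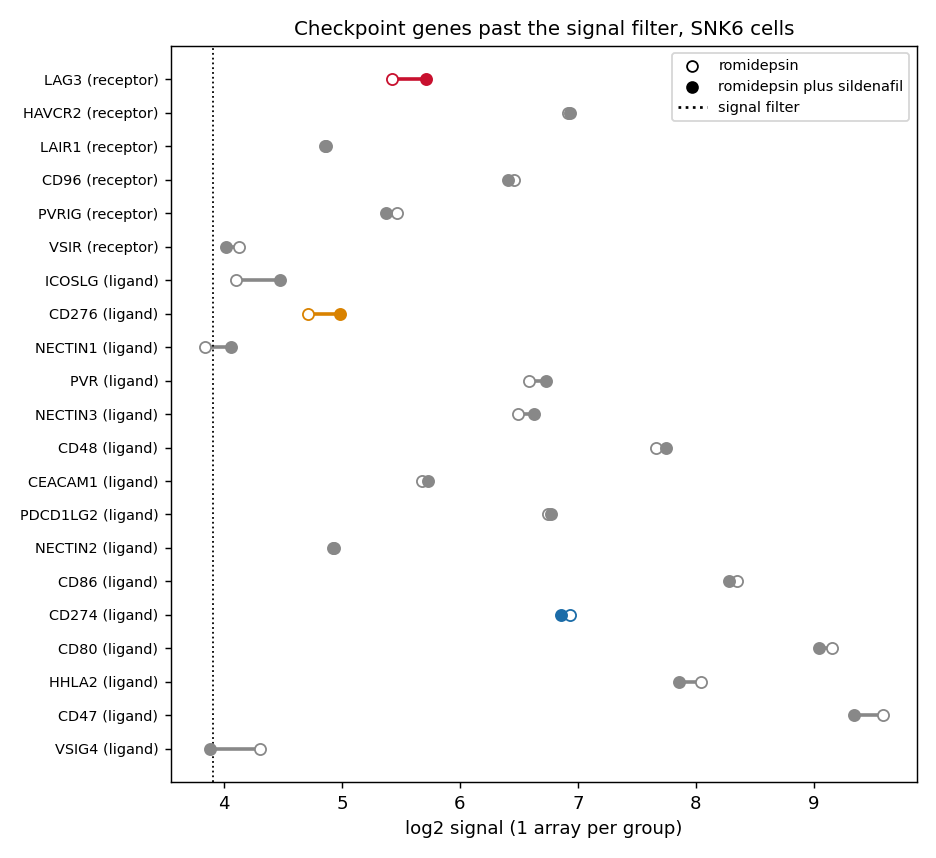
Log2 signal (x axis) of each checkpoint ligand and receptor past the filter, with an open circle for romidepsin and a filled circle for romidepsin plus sildenafil, 1 array each, ordered by difference within ligands and receptors. The dotted line is the filter level of 3.91. LAG3 and CD276 show the step to the right from 5.42 to 5.71 and from 4.71 to 4.98, and CD274 stays between 6.86 and 6.94.

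Genes known to act on PD-L1 held no call, against 1.99% of all genes. Of 33 listed, 23 were named and 22 passed the filter, 12 of them higher and 10 lower with a median of 0.01. JAK2, a kinase of the interferon-gamma receptor whose gene also lies on chromosome 9, read 5.73 and 5.49 (-0.24). IRF1, a factor that binds elements of the kind searched ahead of CD274, read 5.92 and 6.04 (0.12), and IRF9 5.53 and 5.72 (0.19). CMTM6, the protector of PD-L1 protein, read 7.69 and 7.42 (-0.27), while its relative CMTM4 was at -0.15. CMTM6 was the only gene of the 22 past 1.2-fold (4.55%, against 19.3% of all genes), narrowly, with -0.266 against 0.263. Most of the 22 lay in deciles 7 to 10 of signal, where 3.87% to 12.1% of genes were past it. The low share therefore does not set this list apart. IFNGR2, a chain of the interferon-gamma receptor, read 2.34 and 2.71 (0.37), below the filter on both arrays. Among the 22, the largest differences after CMTM6 were SOCS1, a feedback inhibitor of JAK signalling (-0.26), JUN (-0.26) and JAK2. STAT3 was at 0.06, MYC at 0.05, NFKB1 at -0.22 and RELA at 0.15. IFNG was not analysed here.

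For LAG3, few partners could be read. Of 14 listed genes 4 were named and 3 passed. ADAM10 (7.93 and 7.91) and ADAM17 (7.83 and 7.80), the proteases that shed LAG3 from the surface, differed by -0.02 and -0.03. CD4, the relative of LAG3 that lies beside it on chromosome 12, read 4.42 and 4.52 (0.10). FGL1, its soluble ligand, was below the filter on both arrays (2.28 and 2.02). The MHC class II genes and LGALS3 were not analysed here.

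The list of PD-1 and antigen receptor signalling also held transcription factors such as TBX21 and TOX. Of its 28 genes 12 passed the filter, 7 higher and 5 lower, with a median of 0.06. None was called, against 1.99% of all genes. Past 1.2-fold were 4 of the 12 (33.3%, against 19.3% of all genes). They were TBX21, encoding T-bet (4.62 and 5.09, 0.47), TOX, a factor of chronically stimulated T cells (4.45 and 4.77, 0.32), the kinase gene LCK (4.08 and 4.36, 0.28) and, lower, SYK (5.12 and 4.68, -0.44). All 4 probe sets were dimmer than that of LAG3 on both arrays. They lay in deciles 2 to 4 of signal, where 26.4% to 29.96% of all genes were past 1.2-fold, and were the only genes of the 12 there. The other 8 lay in brighter deciles, where 3.87% to 16.1% were past it. At like signal the shares were thus all of these 4 genes and none of the other 8. Whether so few genes set the list apart was not tested. The other 8, all brighter on both arrays than these 4, lay between -0.18 (SH2D1A) and 0.14 (AKT1), with VAV1 at -0.12, CSK at 0.12, ZAP70 at -0.07, LAT and CD247 at 0.06 and LCP2 at -0.04. Of the costimulatory genes 7 passed, with a median of 0.01. CD58, the ligand of CD2, read 6.56 and 6.09 (-0.46), CD27 was at 0.15, CD226 at -0.09 and SLAMF6 at 0.07.

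No marker of a cell type was past 1.5-fold, against 1.99% of all genes, which for so few markers does not set them apart. The 8 NK markers had a median of -0.01, with NCR2 at 0.38, NKG7 at -0.27, GNLY at 0.11 and TYROBP at 0.10. For T cells, 5 markers passed (median 0.00), among them CD6 at -0.25, CD5 at 0.24 and CD8A at -0.02. The B cell markers that passed were PAX5 (-0.18), CD22 (-0.09) and BLK (-0.04), and the myeloid ones VSIG4 (-0.42), CSF1R (0.27), CD68 (-0.11) and MARCO (0.07). The myeloid genes CD14 (3.62 and 3.79), CD163 (2.89 and 3.07) and LYZ (2.17 and 2.24) were below the filter on both arrays. Of 9 stromal and epithelial markers 3 passed, KRT18 (0.34), KRT8 (-0.30) and KRT19 (-0.26). The 5 housekeeping genes had a median of -0.14, with HPRT1 at -0.33, GAPDH at -0.26, PPIA at -0.14 and TBP at 0.10. A step of the size seen in LAG3 was thus present among housekeeping genes too, in the opposite direction and at higher signal.

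The nearest named genes on the chromosome, 3 on each side in RefSeq order, gave a local picture. Around CD274, PDCD1LG2 (0.03), RIC1 (0.16) and ERMP1 (-0.14) followed it, and RLN1 (0.04), RLN2 (-0.14) and INSL4 (0.28) preceded it, the last pair below the filter. Around LAG3, PTMS (-0.29), MLF2 (-0.02) and COPS7A (-0.00) lay on one flank, and CD4 (0.10), GPR162 (0.31, below the filter) and P3H3 (-0.07) on the other. LAG3 and PTMS, side by side, stood at 0.29 and -0.29. Around CD276, the following genes LOXL1-AS1 (0.28), LOXL1 (0.20) and STOML1 (0.19) were all higher with sildenafil, as CD276 was. The median of all genes in the decile of signal of each was 0.06 (LOXL1-AS1) or 0.00 (LOXL1 and STOML1). The SD of differences in these deciles was 0.26 and 0.24, so steps of this size were common there. The preceding NPTN (-0.11) and HCN4 (-0.23) were lower, and REC114 (0.10) was below the filter.

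**Figure D4:**
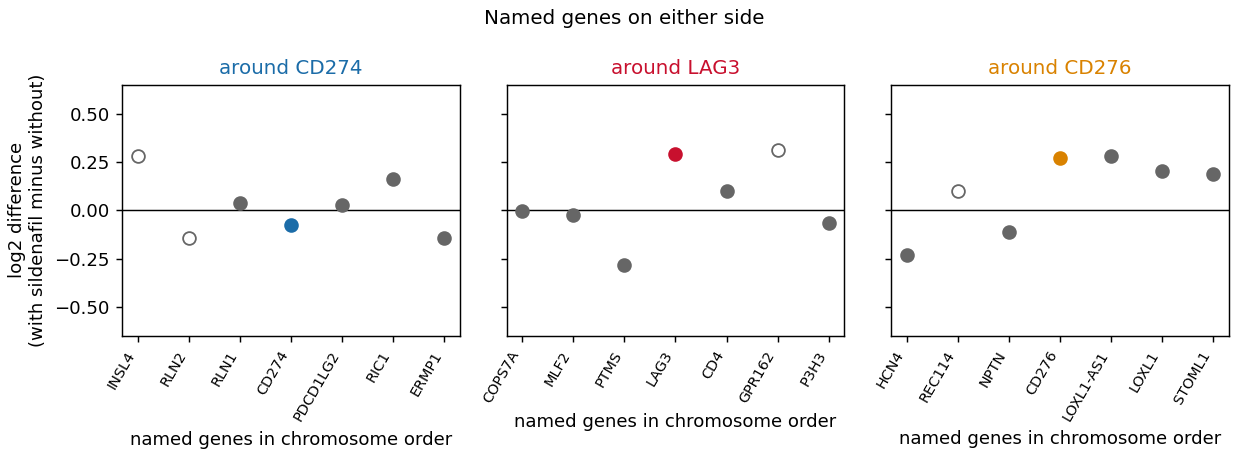
Log2 difference (with sildenafil minus without, y axis) of CD274, LAG3 and CD276 in colour and of the 3 nearest named genes on each side in grey, in chromosome order (x axis, not to scale). Open circles are genes below the signal filter. The 3 genes after CD276 lie between 0.19 and 0.28 and the genes before it between -0.23 and 0.10, and around CD274 and LAG3 too the genes lie on both sides of 0.

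Likeness to each gene was measured as the Euclidean distance between log2 signals over the 2 arrays, among 90 other genes of the lists past the filter. Nearest to CD274 were HAVCR2 (distance 0.07), VAV1 (0.08) and ZAP70 (0.11). Nearest to LAG3 were IRF9 (0.11), CEACAM1 (0.26) and PVRIG (0.34). Nearest to CD276 were TBX21 (0.14), LAIR1 (0.18) and NCR2 (0.20). TBX21 and NCR2 also stood higher with sildenafil, by 0.47 and 0.38, and LAIR1 by 0.01. With 2 arrays this distance mostly reflects brightness.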

How the data were processed

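The deposited table holds log2 signals of 53617 probe sets, 1 column per array. The base was inferred from the maximum, above the natural log of a 16-bit ceiling (11.1) and below 16. Per the labels' protocols, total RNA was amplified with a whole-transcript kit and biotin-labelled. How the authors summarised and normalized the probes is not given in the sources used here. GEO's platform annotation named 16098 probe sets (14884 genes). All Entrez identifiers matched RefSeq (GRCh38.p14). For 779 genes with several probe sets the brightest stood for the gene.

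The members and gene lists were chosen with earlier results of these data known. Named genes were the 3 members, fixed partners, every checkpoint or B7 gene past the filter, up to 4 genes of the largest difference in each other list, the 3 nearest by signal and the 3 chromosome neighbours on each side; a few more are given for their role. Deciles are of mean signal. Alternatives changed the filter, scaling, probe-set handling and threshold. Code was tested on simulated data (Python 3.11.15, numpy 2.4.6, pandas 2.3.3, statsmodels 0.14.6).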

Additional observations from a re-analysis of the deposited data

How the results depend on the processing

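Filters, thresholds and probe-set rules could not change the difference of CD274, LAG3 or CD276, each with 1 probe set. Of the 9 alternatives, only median centring, quantile normalization and lowess centring could. Under these 3 scalings the differences kept their sign, from -0.10 to -0.02, from 0.26 to 0.33 and from 0.24 to 0.27. None reached 1.5-fold. At 1.2-fold LAG3 (0.29) and CD276 (0.27) were past the threshold. In alternatives chosen after seeing the data, 0 of 3 were past 1.2-fold after median centring, where LAG3 missed it at 0.26303 against 0.263034, 1 after lowess centring (span 0.3) and 2 after quantile normalization. The genes called higher and lower were 223 and 156 without a filter, 9 and 9 at 2-fold, and 979 and 971 at 1.2-fold, where 17 list genes were past the threshold. Of 13 list medians, 5 kept their sign and stayed within 0.1 of the reported value. Without a filter those of the checkpoint receptors (0.0147), checkpoint ligands (-0.0343), costimulatory (-0.0099), myeloid (0.0752) and stromal and epithelial (0.099) genes had the other sign. The same held after median centring for the ligands (-0.00189), costimulation (-0.021) and PD-L1 regulators (-0.0168), after quantile normalization for the receptors (0.00507), LAG3 partners (0.0349), NK (0.0364) and myeloid markers (0.0003), and after lowess centring for LAG3 partners (0.0256) and NK markers (0.0195). No paired analysis was possible because each group holds 1 array. Precision is limited by that number, and no background level per probe set was analysed here.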
